A study of Mus musculus with 4 samples.

Results

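Genes that respond to glucocorticoids and to fasting were followed across the 4 groups of a mouse emphysema study. The set held 10 genes, of 27195 named genes on the array, and was chosen by gene name from earlier results on these same arrays, so the values that chose it are given as a description with no test. All 10 were found, on 19 of 56605 probes. They were split into 7 targets of steroid receptors (Fkbp5, Tsc22d3, Sgk1, Zbtb16, Mt1, Mt2 and Cdkn1a) and 3 fasting genes (Pdk4, Angptl4 and Acot1). Pck1, a further fasting gene on 1 probe, was read beside them and is not counted among the 10.

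Lung RNA came from C57BL/6J mice in a layout of surgery (sham or ORX) crossed with an inhaled agent (PBS or PPE), and the labels place sampling at 3 weeks. ORX was read as orchiectomy and PPE as porcine pancreatic elastase, from the title of the series, which speaks of testosterone deficiency and elastase. Each of the groups (sham/PBS, sham/PPE; ORX/PBS, ORX/PPE, always in that order below) was measured once, by an Agilent array that received RNA pooled from 5 mice. There were therefore no replicates, no spread between mice was measured, and every difference below is between single pools.

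The glucocorticoid receptor is a steroid-activated transcription factor that binds a palindromic DNA element, which other steroid receptors can also bind, so some targets answer to several hormones. Fasting raises glucocorticoids and free fatty acids, and fatty acids act through PPAR receptors, whose targets spare glucose and burn fat. Several fasting genes are thus targets of glucocorticoid and PPAR receptors together. In lung, glucocorticoid targets respond to stress and to inflammation, and many of these genes also cycle with the time of day.

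RefSeq promoter windows (build GRCm38.p6, 250 bases before to 50 after a start site) were held for 8 of the 10 genes and for Pck1, in 17 windows. Zbtb16 and Angptl4 had no window. The 250 bases before the start are shown for 3 genes, as examples of the receptor element (Sgk1) and of metal elements (Mt1 and Mt2). Whether these elements bear on the levels below was not tested. Capitals mark matches on either strand. They are AGAACA and TGTTCT with 3 free bases between them for the steroid receptor element, TGTTCT for its half-site, CACGTG for the E-box and TGCACNC or TGCGCNC for the metal response element. Half-sites inside the full element overlap it, and in Sgk1 the E-box overlaps a further half-site. The Sgk1 window shown, for 1 of several starts of that gene, is chr10:21993640-21993889, the Mt1 window is chr8:94178839-94179088 and the Mt2 window is chr8:94172368-94172617, all on the plus strand.
Sgk1: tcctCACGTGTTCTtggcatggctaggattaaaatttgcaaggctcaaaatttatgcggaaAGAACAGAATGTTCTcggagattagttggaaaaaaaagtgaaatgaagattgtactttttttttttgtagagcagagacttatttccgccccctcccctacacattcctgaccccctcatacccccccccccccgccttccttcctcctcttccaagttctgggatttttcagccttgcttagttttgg
Mt1: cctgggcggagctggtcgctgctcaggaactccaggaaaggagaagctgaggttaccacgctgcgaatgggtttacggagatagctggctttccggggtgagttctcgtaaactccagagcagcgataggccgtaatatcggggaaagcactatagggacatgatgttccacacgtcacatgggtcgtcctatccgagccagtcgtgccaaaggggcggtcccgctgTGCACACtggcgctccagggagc
Mt2: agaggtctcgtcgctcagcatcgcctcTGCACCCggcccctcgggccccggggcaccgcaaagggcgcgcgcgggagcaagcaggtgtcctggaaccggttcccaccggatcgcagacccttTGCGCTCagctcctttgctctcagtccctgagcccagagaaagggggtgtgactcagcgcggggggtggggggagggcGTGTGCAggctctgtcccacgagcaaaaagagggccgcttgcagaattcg

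The full receptor element stood in 3 of 32851 windows of 300 bases, or 0.00913%, and of the genes described here it was found in Sgk1. The match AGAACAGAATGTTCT lay from base -189 to base -175 of that start. Metal response elements were commoner, with matches in 25.7% of all windows, and of these genes in Mt1, Mt2 and another Sgk1 start. The Mt1 window held 3, of which 2 lie after the start and are not shown, and the Mt2 window held 4, of which 1 lies after the start. Tsc22d3 and Acot1, like Sgk1, each held a receptor half-site, which 19% of all windows hold, and Fkbp5 an E-box, found in 7.15%. The PPAR element, a pair of AGGTCA copies with 1 free base between them, found in 0.0396% of all windows, was in none of the 17, nor were the cyclic AMP element TGACGTCA (1.79%) or the FoxO element GTAAACA (3.65%). Angptl4 and Zbtb16, having no window, were not searched. A match describes letters in these windows and shows no binding.

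Every array measured lung. The markers fixed for alveolar type 1 and type 2 cells, club cells and endothelium were above background on all 4 arrays. Between 20132 and 20912 of the 27195 genes were well above background on each, and the 10 genes were above background on every array by their brightest probe. Levels are given as the scaled signal, the processed signal divided by its array's 75th percentile, which was 618.5, 591.7, 715.1 and 621.5 in the group order. Differences are on the log2 scale unless given as folds, and the 300 probes with 10 spots varied within each array by a median SD no larger than 0.0363, or 0.0514 for a difference. That error covers spots, not mice. In whole lung, fewer cells of a type and less RNA per cell cannot be told apart.

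The fasting genes were lowest in ORX/PBS lungs and stood closer together in the other 3 groups. Pdk4, the kinase that shuts pyruvate dehydrogenase and so spares glucose, had a scaled signal of 2.31 in sham/PBS and 2.04 in sham/PPE, against 0.885 in ORX/PBS and 1.96 in ORX/PPE. The ORX/PBS pool was the low one, 2.61-fold below sham/PBS, while ORX/PPE was 1.04-fold below sham/PPE. Its probe lies on mm9 chr6:5433441-5433500, minus strand.

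Angptl4, a secreted inhibitor of lipoprotein lipase read by a probe on mm9 chr17:33911880-33911939, had scaled signals of 32.3, 26.9, 10.5 and 19.8 in the same order. It was the member with the widest range, 1.62 on the log2 scale, and ORX/PBS was 3.07-fold below sham/PBS. Among 19320 genes above background on all arrays 99.3% had a smaller range than Angptl4, and the median gene had 0.31.

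Acot1, a cytosolic enzyme that splits fatty acyl-CoA (probe on mm9 chr12:85358452-85358511), had scaled signals of 12.6, 9.28, 6.36 and 10.4. It was 1.98-fold lower in ORX/PBS than in sham/PBS, just short of the 2-fold threshold used for a call, which it passed at -1.04 with quantile normalization or the deposited value table and at -1.01 with the 75th percentile of the file headers. Its close relatives Acot2 and Acot5 were at -0.74 and -0.88 in the same comparison, and relatives this similar may share signal on 1 probe. Pck1, which commits carbon to new glucose, had scaled signals of 0.879, 1.09, 0.222 and 0.389. Unlike Pdk4 and Acot1 it was low in both ORX pools, 3.96-fold below sham under PBS and 2.82-fold below under PPE.

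The receptor targets did not form 1 pattern. Sgk1, the serum and glucocorticoid regulated kinase that keeps sodium channels at the membrane, had scaled signals of 15.9, 24.2, 18.4 and 23.6. It was lowest in sham/PBS, the opposite end from the fasting genes, and higher in both PPE pools than in the matching PBS pools, by 0.60 in sham and 0.36 in ORX mice. Its ORX/PBS level lay between that of sham/PBS and those of the PPE pools. The brightest probe of Fkbp5, a co-chaperone that restrains the glucocorticoid receptor, read 4.99, 6.86, 5.81 and 7.99. It was higher by 0.46 with PPE in each surgery and by 0.22 with ORX under each agent.

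Tsc22d3, the anti-inflammatory leucine zipper protein GILZ, read 71.4, 60.1, 60.1 and 74.4. These values lay within 0.31 on the log2 scale, near the 0.31 of the median gene, and another probe of it went the same way in all 4 comparisons. Zbtb16, a zinc finger factor strongly induced by glucocorticoids, read 11.2, 11.8, 10.8 and 9.89. Its range of 0.25 was wider than that of 37.5% of genes, so its pools lay close together.

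Both metallothioneins, small zinc-binding proteins whose genes are induced by metals and by glucocorticoids, were lowest in ORX/PBS. Mt2 read 31.7, 37.3, 17.8 and 33.9, with ORX/PBS 1.78-fold below sham/PBS and ORX/PPE 1.90-fold above ORX/PBS. Mt1 read 55.8, 63.1, 42.0 and 67.9, so its ORX/PBS pool was 1.33-fold below sham/PBS and 1.62-fold below ORX/PPE. Of the other metal response genes listed 0 of 8 passed 2-fold in any comparison, with Slc30a2 at -0.72 and Hmox1 at 0.74 for PPE in sham mice.

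Cdkn1a, which encodes the cell cycle inhibitor p21 (probe on mm9 chr17:29237377-29237436), read 5.40, 4.65, 2.03 and 3.52. ORX/PBS was 2.65-fold below sham/PBS, and ORX/PPE lay between. With the mean of its probes the log2 difference was -0.97, short of 2-fold. Cdkn1a is listed with the receptor targets, but among 19319 genes the profile nearest to it over the 4 arrays was that of Angptl4, and the reverse held too. Their distance was 0.16 (Euclidean, on log2 levels centred per gene). Both genes were chosen with these values known, so nothing is read from their closeness. The next nearest to Cdkn1a was Spag4 at 0.17 and to Angptl4 Iqcf4 at 0.18. The nearest to Sgk1 was Arrb2 at 0.02 and to Tsc22d3 AA645497 at 0.0037, and with 4 arrays many genes lie close to a flat profile. Cdkn1a is also a p53 target, and of 15 other p53 targets 0 passed 2-fold for ORX under PBS, with a median of 0.01, Gdf15 at -0.68 and Aen at -0.40.

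Probes of 1 gene did not always read alike, which bears on 3 members. Over 26 comparisons in which another probe of a member was measured on both arrays, 16 had the same sign as the brightest probe. A weaker Fkbp5 probe, on mm9 chr17:28574995-28575054, read 0.910, 0.944, 0.425 and 0.947. By that probe Fkbp5 was low in ORX/PBS like the fasting genes, 2.14-fold below sham/PBS and 2.23-fold below ORX/PPE, where the brightest probe, on mm9 chr17:28536060-28536119, was 0.22 higher and 0.46 lower. A weaker Mt1 probe, on mm9 chr8:96703844-96703903, read 2.38, 2.14, 0.942 and 1.20. It was thus low in both ORX pools, 2.53-fold under PBS and 1.78-fold under PPE. For Cdkn1a, a dim probe differed by -1.57 between ORX/PBS and sham/PBS, beside -1.41 for the brightest, though by -0.53 with normexp background correction, and another dim probe by 0.07. Exon positions for build mm9 were not used here, so which transcript forms these probes read was not tested.

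**Figure D1:**
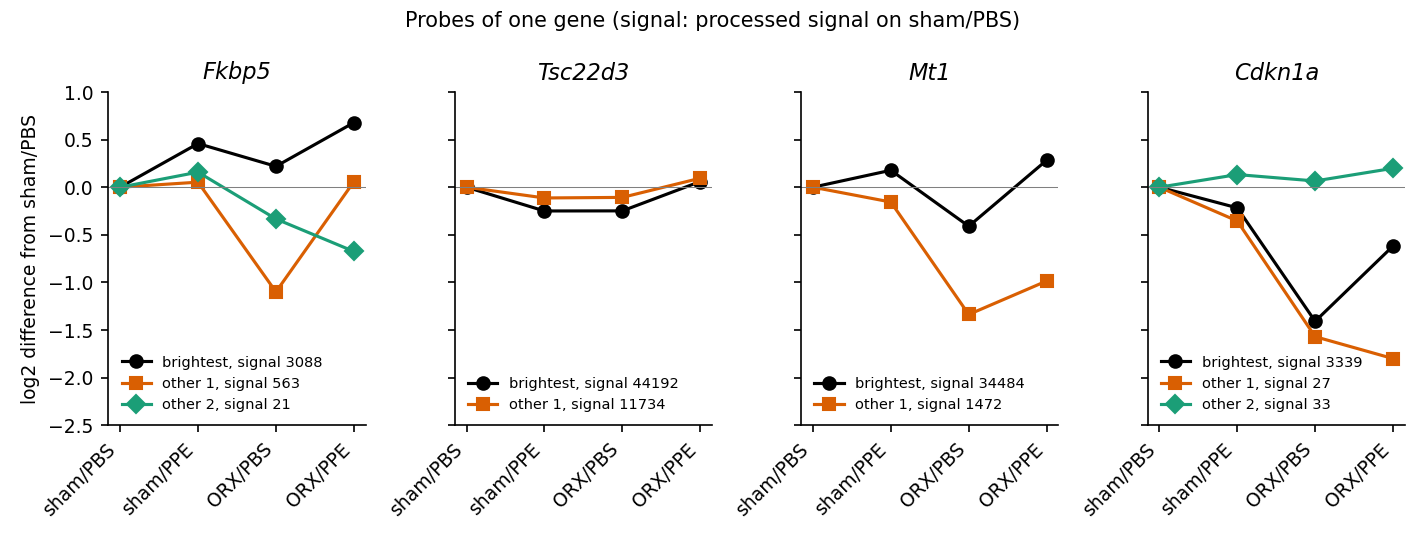
Probes of Fkbp5, Tsc22d3, Mt1 and Cdkn1a that were well above background on at least 2 arrays, as the log2 difference from the sham/PBS array for each of the 4 groups; legends give each probe's processed signal on sham/PBS, and 1 Cdkn1a probe (other 1) was not well above background on ORX/PPE. The Tsc22d3 probes run together, while the Fkbp5 probes part at ORX/PBS, with the brightest at 0.22 and the next at -1.10.

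The effect of elastase was read as PPE minus PBS for each surgery. In sham mice 0 of the 10 genes passed 2-fold in either direction, where 1.8% of 19760 genes did, 1.39% higher and 0.405% lower. The 3 fasting genes were slightly lower, from -0.18 for Pdk4 to -0.44 for Acot1, while Sgk1 at 0.60 and Fkbp5 at 0.46 were the highest members. Pck1, read beside them, went the other way from the 3 fasting genes, at 0.32. The receptor targets had a median of 0.18 (0.03 with quantile normalization) and the fasting genes one of -0.26, beside 0.04 for all genes.

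In ORX mice 9 of the 10 genes were higher with PPE and Zbtb16 was at -0.12. The members were chosen with these values known and the share of all genes above 0 was not counted, so nothing is read from that count. Of the 10 genes 1, Pdk4, passed 2-fold, at 2.21-fold, where 0.681% of 19966 genes were 2-fold higher. None was 2-fold lower, where 0.406% of genes were, and 1.09% passed in either direction. Mt2 followed at 0.93, Angptl4 at 0.91, Cdkn1a at 0.79, Acot1 at 0.72 and Mt1 at 0.69. The fasting genes had a median of 0.91 and the receptor targets one of 0.46, beside -0.01 for all genes. Since ORX/PBS was the low pool for 6 members, this comparison and that of ORX under PBS share the array on which they rest and are not separate results.

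The effect of the surgery was read as ORX minus sham for each agent, the question the series title raises about testosterone. Under PBS 3 members were at least 2-fold lower, namely Angptl4, Cdkn1a and Pdk4, at -1.62, -1.41 and -1.38, where 1.22% of 20056 genes were 2-fold lower. The rule that chose the members used these values, so nothing is read from that share. None was 2-fold higher, where 0.663% of genes were, and 1.88% passed in either direction. Acot1 at -0.99 and Mt2 at -0.83 came next, and Fkbp5 at 0.22 and Sgk1 at 0.20 lay above 0. The fasting genes had a median of -1.38 and the receptor targets one of -0.25, beside 0.01 for all genes. The receptor target median was -0.40 with the mean of a gene's probes and -0.37 with quantile normalization.

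Under PPE the same genes differed little between ORX and sham. None of the 10 passed 2-fold in either direction, where 1.84% of 19713 genes did, 0.309% higher and 1.53% lower. The lowest was Angptl4 at -0.45, followed by Cdkn1a at -0.40, and the highest was Tsc22d3 at 0.31. Pck1 alone of the genes followed was past 2-fold here, at -1.49.

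**Figure D2:**
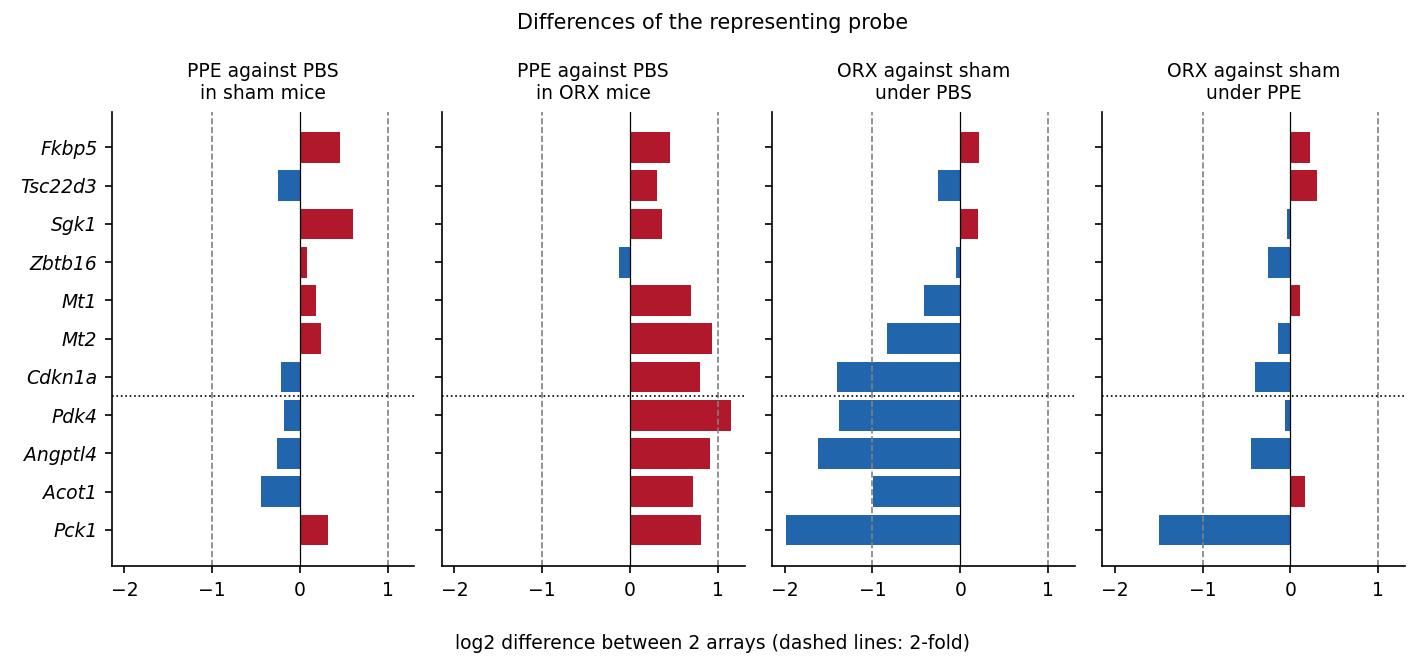
Log2 difference of each gene's brightest probe in the 4 comparisons, 1 array against 1 array, with dashed lines at 2-fold and a dotted line between receptor targets and fasting genes. Bars are longest for ORX under PBS, where Angptl4 reaches -1.62 and Pck1 -1.99, and point the other way for PPE in ORX mice, which shares the ORX/PBS array.

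The PPE difference was higher in ORX than in sham mice for several of these genes, by 1.33 for Pdk4, 1.17 for Angptl4, 1.16 for Acot1 and 1.01 for Cdkn1a. These 4 of 10 members differed by 1 or more, where 1.27% of 19320 genes did, and 0 members by -1 or less, where 1.61% did. That contrast holds the values that chose them, and the difference was not tested. It was 0.69 for Mt2, 0.52 for Mt1, 0.00 for the brightest probe of Fkbp5, -0.20 for Zbtb16 and -0.24 for Sgk1. ORX/PPE and sham/PBS lungs, which share neither surgery nor agent, differed by less than 2-fold for all 10, from -0.71 for Angptl4 to 0.68 for Fkbp5. Pck1 was past 2-fold there, at -1.18, and the weaker Mt1 probe was at -0.99. Of all genes 0.797% were 2-fold higher and 1.06% lower in that contrast. ORX/PBS was the lowest array for 6 of the 10 members and the highest for 0, while it was lowest for 20.6% and highest for 21.5% of all genes above background. The members were chosen with these levels known, so nothing is read from that count.

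Wider lists of the same pathways showed smaller differences. The members were chosen with these values known, so nothing is read from that contrast. Of 29 other glucocorticoid targets 0 passed 2-fold for ORX under PBS and 18 lay below 0, with a median of -0.16. The transcription factors Cebpb and Cebpd, at -0.75 and -0.64, were the lowest, and the sulfotransferase gene Sult1a1 at 0.84 and the iron-binding lipocalin Lcn2 at 0.66 the highest. For PPE in ORX mice the list had a median of 0.11 and 0 past 2-fold, led by the mTOR inhibitor Ddit4 at 0.73 and Lcn2 at 0.68. For PPE in sham mice 1 passed, Lcn2 at 1.28, and the median was 0.07. Lcn2 is also a neutrophil granule gene, and 3 of 3 neutrophil markers passed 2-fold in that comparison, among them S100a8 at 2.38 and Mmp8 at 2.30, whose part in it was not tested. Under PPE the list's ORX median was -0.03, with 0 past 2-fold.

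Of the other fasting and PPAR targets 29 were measured for ORX under PBS, 0 passed 2-fold and 17 lay below 0, with a median of -0.12. Beside Acot2 and Acot5 the lowest were the mitochondrial carnitine palmitoyltransferase Cpt1b at -0.75 and the carrier Slc25a34 at -0.71. In ORX mice with PPE the median over 30 genes was 0.10, with Slc25a34 at 0.82. Of the 29, none was as far below 0 as Acot1 at -0.99, Pdk4 or Angptl4, which were chosen with these values known. For PPE in sham mice the median was 0.13 and for ORX under PPE -0.12, with 0 past 2-fold in both. FoxO targets, which fasting and low insulin raise, had medians of -0.04 for ORX under PBS and 0.13 for PPE in ORX mice. Hypoxia response genes, since Angptl4 is also one, had medians of 0.03 and -0.06, with 0 of 13 past 2-fold and Adm at -0.84 for ORX under PBS.

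**Figure D3:**
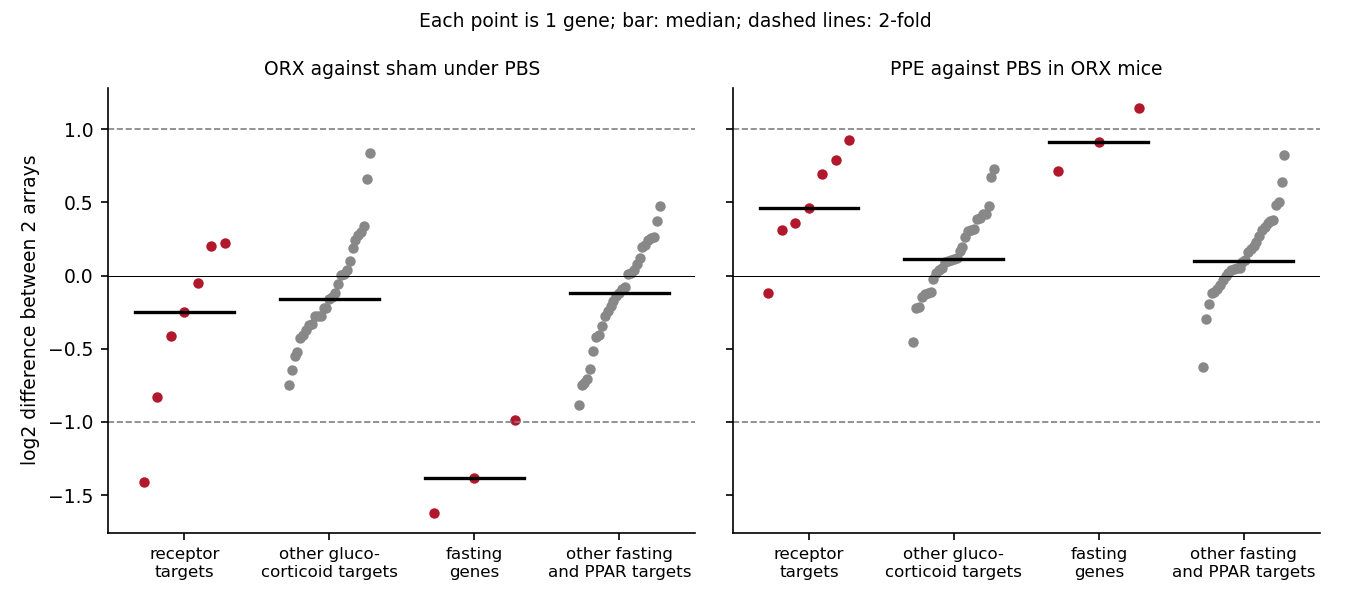
Log2 differences of each measured gene (points) in the receptor target and fasting members (red) and in the wider lists (grey), for ORX against sham under PBS and for PPE against PBS in ORX mice; black bars are medians and dashed lines 2-fold. The fasting members, chosen with these values known, have medians of -1.38 and 0.91, and the wider lists between -0.16 and 0.11.

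Receptors themselves differed little. Nr3c1, the glucocorticoid receptor, had log2 levels of 4.02, 4.29, 4.31 and 4.16 in the group order. Hsd11b1, the enzyme that regenerates active glucocorticoid inside cells, was lowest in sham/PBS at 4.32 and read 4.88, 4.97 and 4.74 in the others. The mineralocorticoid receptor Nr3c2 was lowest in sham/PPE at 0.53 and between 0.93 and 1.02 elsewhere. Ppara, which drives fasting genes in liver, lay at -0.21, -0.25, -0.52 and -0.39. None of 11 receptors, cofactors and hormone enzymes measured passed 2-fold in any comparison.

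Other transcripts differed in the same comparisons, and their part in the results above was not tested. For ORX under PBS 6 of 16 clock genes were 2-fold higher and 3 lower, with Arntl at -2.17 and Dbp at 2.16. Clock genes near 0 there included Per1, which glucocorticoids also induce, at 0.04, Nr1d1 at -0.07 and Ciart at -0.10. Heat shock genes were lower there, with 4 of 10 past 2-fold and Hspa1b at -3.57. For ORX under PPE 2 of 15 clock genes were 2-fold higher and 2 lower, with Arntl at -1.82 and Per2 at 1.21. Of the heat shock genes 2 of 10 were 2-fold lower, with Hspa1b at -1.53. For PPE in sham mice 1 of 16 clock genes was 2-fold higher (Dbp at 1.64) and 1 lower (Npas2), and Hspa1a and Hspa1b were 2-fold lower. For PPE in ORX mice 0 genes of either list passed 2-fold. Heart and fat are tissues that express Pdk4 and Angptl4. Heart markers had summed scaled signals of 109 in sham/PBS, 230 in sham/PPE, 89.9 in ORX/PBS and 44.2 in ORX/PPE, with 10 of 10 above background on every array. Fat markers summed to 18.2, 36.0, 21.5 and 16.2, with Ucp1 the 1 of 9 not above background, in sham/PBS and ORX/PPE. Liver markers, of which 4 or 5 of 7 were above background, summed to 3.25, 4.86, 5.48 and 5.04, and Ttr was not above background on any array. That sum mostly followed Apoa2, by far the brightest, at log2 levels of 1.55, 1.91, 2.31 and 2.25. Alb (-2.86, -1.79, -2.21 and -3.55) and Ahsg (-2.69, -0.42, -2.13 and -2.62) were instead highest in sham/PPE.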

How the data were processed

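Lung RNA was labelled with Cy3 and hybridized to 4 arrays of Agilent design 074809, 1 per group, per the labels' protocols and the file headers. The processed signal is a background-subtracted linear intensity, not normalized across arrays; the file headers say so and name Feature Extraction 10.7.1.1, while the submitters' processing notes name 9.5.1.1. Other columns of the deposited files mark, as 0 or 1, whether a spot is above background, saturated or an outlier. The deposited value table holds linear intensity values with the same median, 71.5, in all 4 columns, and on a log2 scale its median distance from quantile normalization was 0.00364.

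Outlier spots were left out (31 to 54 of 59305 per array), 0 were saturated, spots of a probe were averaged, and log2 minus the array's 75th percentile over all 56605 probes was taken. Genes were named by RefSeq accession, symbol or synonym (GRCm38.p6), and 10293 probes had no name. A gene was read by its brightest probe. A difference counted with the gene well above background in both pools, or in 1 if the bound passed 2-fold. No test was run, since each group was 1 array and the members and lists were chosen with earlier results of these data known. The genes named are the members, Pck1, up to 4 of each list per comparison by size of difference, up to 3 nearest profiles per member, and the receptors; some of these are not reported here. Other genes of a list were named after their values were seen (Per1, Nr1d1 and Ciart for ORX under PBS). The software was numpy 2.4.6 and pandas 2.3.3 under Python 3.11.15, matplotlib 3.10.9 for plots, and normexp in limma 3.58.1 with R 4.3.3. The 2-fold calls were tried on simulated arrays that held spot noise and set folds only. Those arrays held no spread between mice or pools, so they say nothing of that error.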

Additional observations from a re-analysis of the deposited data

Results flagged for a closer look

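Some genes differed in opposite directions under the same contrast in the 2 surgeries or under the 2 agents, by more than 0.103, or 2 spot SDs of a difference, on each side. These differences between effects were not tested, since each group was 1 array. How many of all genes pass the same rule was not counted. The cut lies well below the median gene's range of 0.31 over the 4 arrays, which Tsc22d3 does not exceed.

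For PPE against PBS, Pdk4 was at -0.18 in sham and 1.15 in ORX mice, Angptl4 at -0.26 and 0.91, and Acot1 at -0.44 and 0.72. Cdkn1a was at -0.22 and 0.79, and Tsc22d3 at -0.25 and 0.31. For ORX against sham, Acot1 was at -0.99 under PBS and 0.17 under PPE, Mt1 at -0.41 and 0.11, and Tsc22d3 at -0.25 and 0.31. The Mt1 value of 0.11 lies barely past 0.103 and was -0.36 with the mean of its probes, so the opposite direction is lost there, and the weaker Mt1 probe was at -1.34 and -0.83. Both sets rest on the same 4 arrays, so a gene in both is 1 pattern, not 2.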

How the results depend on the processing

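With 1 array per group no array could be left out, and 9 other settings were compared. With a 1.5-fold threshold the members higher with PPE numbered 1 in sham mice (Sgk1) and 6 in ORX mice (Mt1, Mt2, Cdkn1a, Pdk4, Angptl4 and Acot1), and 5 were lower with ORX under PBS (Mt2, Cdkn1a, Pdk4, Angptl4 and Acot1), since that threshold admits smaller differences. The other 5 counts at 1.5-fold, and all 8 counts under each of the other 8 settings, stayed within 1.5 times. Taking the mean of a gene's probes left 2 members 2-fold lower with ORX under PBS, with Cdkn1a at -0.97, and put Fkbp5 at -0.40 and Mt1 at -0.87 there. Of the 40 member differences 3 changed sign with that mean, 2 with quantile normalization, 2 with the deposited value table, 1 with normexp and 0 with median centring, and no called value did. Normexp moved none by more than 0.0758. The 75th percentile of the file headers, chosen after seeing the data, moved none by more than 0.0243. The arrays bound the precision: a spot error of 0.0514 for a difference says nothing of the spread between mice.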

Other observations

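Beside the members, Gdf15 and Trim63 passed 2-fold in lists where no other gene did, as did Lcn2, given above. Gdf15, a stress-induced cytokine of the p53 list, was 0.80 higher with PPE in sham mice and 1.41 higher in ORX mice, the 1 of 15 past 2-fold there, and 1.26 with normexp. Trim63, a muscle ubiquitin ligase of the FoxO list, was not well above background in ORX/PPE, so its differences there are bounds. It was at least 2.46-fold lower than in ORX/PBS and at least 6.27-fold lower than in sham/PPE, with log2 values of -0.33 and -1.13 under normexp. Of the immediate early genes 12 of 14 lay below 0 with PPE in ORX mice, with a median of -0.37 beside -0.01 for all genes. The share of all genes below 0 was not counted. Egr1 was at -1.25 and Fosb at -1.01, opposite to the fasting genes in that comparison.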
